A study of Mus musculus with 2 samples.

Results

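The Ly6 surface proteins were followed at the RNA level through the leukocyte classes of the mouse lung, with and without bleomycin injury. The 7 members were Ly6a, Ly6c1, Ly6c2, Ly6d, Ly6e, Ly6g and Ly6i, a set of family genes chosen by name and listed in both single-cell tables, out of 24785 genes listed in either. Other genes of the wider Ly6/uPAR family were listed too and are counted near the end. The study sorted living CD45+ cells from the lungs of wild-type C57BL/6N mice, which the methods describe as matched for age and sex. The BLM library held cells taken 15 days after intratracheal bleomycin, a drug that injures the alveolar epithelium and provokes scarring. The naive library came from untreated lungs. For either group equal cell numbers of 3 mice were pooled into 1 library, so mouse, library preparation and treatment cannot be told apart. No comparison below has a replicate check and none carries a p-value. Intervals are exact 95% intervals and cover counting error only.

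Ly6 proteins are small cysteine-rich proteins of the uPAR fold held in the outer leaflet of the membrane by a glycosylphosphatidylinositol (GPI) anchor. Immunologists know several of them as antibody targets: Ly6C, encoded by Ly6c1 and Ly6c2, separates classical from nonclassical monocytes and marks memory CD8 T cells, Ly6G marks neutrophils, and Sca-1, the product of Ly6a, marks stem cells, endothelium and activated lymphocytes. Ly6d accompanies the B lineage, Ly6e is broadly expressed, and several members are induced by interferons.

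All 7 genes lie on chromosome 15 of GRCm38 within 397 kb. In the GENCODE annotation of that build Ly6d spans chr15:74762056-74763620 on the minus strand, Ly6e chr15:74955051-74959905 on the plus strand, Ly6i chr15:74979534-74983430 on the minus strand and Ly6a chr15:74994877-74998031 on the minus strand. Ly6c1 spans chr15:75044018-75048830 and Ly6c2 chr15:75108158-75111970, both on the minus strand, and Ly6g chr15:75155240-75159126 on the plus strand. The last 150 coding bases of the Ly6C pair, positions 244 to 393 of the coding sequence, are shown to give the likeness of these genes. A read from this stretch can be assigned to the one gene or the other only if it covers a differing position. Where the reads of these libraries fell was not examined. Capitals mark the 3 positions at which the sequences differ.
Ly6c1: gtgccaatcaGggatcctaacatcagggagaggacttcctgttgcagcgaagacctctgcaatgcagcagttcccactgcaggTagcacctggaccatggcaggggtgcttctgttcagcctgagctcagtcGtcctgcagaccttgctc
Ly6c2: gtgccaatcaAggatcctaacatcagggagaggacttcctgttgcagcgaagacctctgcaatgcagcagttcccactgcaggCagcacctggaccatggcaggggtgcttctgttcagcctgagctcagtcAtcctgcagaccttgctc
Over the whole coding sequence of 393 bases, 384 were identical (97.7%). Ly6a, Ly6c1, Ly6c2, Ly6g and Ly6i shared from 79.2% to 97.7% of aligned coding bases pair by pair, with Ly6a and Ly6i at 86.3%. Ly6d and Ly6e shared from 51.9% to 56.3% with any other member or with each other. Of the 441 stretches of 60 bases in the last 500 bases of the Ly6c1 transcript, 65 (14.7%) were also in a transcript of Ly6c2. This share is not an error rate, and how uncertain the split of UMIs between those genes is was not tested. No such stretch of Ly6d, Ly6e or Ly6g was shared with another transcript, and 10 of Ly6a and 8 of Ly6i were shared with the predicted gene I830127L07Rik.

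RefSeq promoters of the build GRCm38.p6 were at hand for 3 of the 7 members. The 250 bases before the first listed start are given because the class with the highest level differs among these 3 genes in the naive library below: a Sparc-led cluster for Ly6c1, classical monocytes for Ly6c2 and neutrophils for Ly6g. They lie at chr15:75048838-75049087 on the minus strand for Ly6c1, chr15:75111972-75112221 on the minus strand for Ly6c2 and chr15:75155011-75155260 on the plus strand for Ly6g, and capitals mark the letters TATAAA or GAGGAAGT.
Ly6c1 promoter: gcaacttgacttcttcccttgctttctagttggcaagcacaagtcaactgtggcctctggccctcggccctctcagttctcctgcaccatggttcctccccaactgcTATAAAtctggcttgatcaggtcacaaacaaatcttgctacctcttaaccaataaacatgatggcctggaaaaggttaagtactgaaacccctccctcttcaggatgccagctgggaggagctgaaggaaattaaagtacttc
Ly6c2 promoter: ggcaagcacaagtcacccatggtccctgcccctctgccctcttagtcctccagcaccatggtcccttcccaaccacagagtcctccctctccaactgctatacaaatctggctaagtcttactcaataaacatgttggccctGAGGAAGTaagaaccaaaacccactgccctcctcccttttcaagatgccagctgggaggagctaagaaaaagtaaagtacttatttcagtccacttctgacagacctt
Ly6g promoter: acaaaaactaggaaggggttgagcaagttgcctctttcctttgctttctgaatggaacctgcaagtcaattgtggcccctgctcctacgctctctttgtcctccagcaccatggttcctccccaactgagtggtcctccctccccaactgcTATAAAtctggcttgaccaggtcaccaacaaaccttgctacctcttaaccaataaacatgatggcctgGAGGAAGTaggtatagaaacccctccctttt
Both strands were searched. GAGGAAGT, a purine-rich stretch of the kind bound by PU.1, was in 2 of 2 listed windows of Ly6c2, 2 of 2 of Ly6g and 1 of 2 of Ly6c1, and in 2.44% of 32851 promoter windows of the same length. TATAAA was in 2 of 2 windows of Ly6g, 1 of 2 of Ly6c1 and 0 of 2 of Ly6c2, against 12.4% of all windows. The core of the interferon-stimulated response element, GAAA repeated after a gap of 2 bases (2.98% of all windows), and the interferon gamma type motif TTCNNNGAA (7.02%) were in none of these 6 windows. These are matches of letters in short windows.

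After quality control 4393 cells with 21216094 UMIs were kept in the BLM library and 3820 with 16973497 in the naive library, with median UMIs per cell of 2381 and 2701.5. A UMI is a molecular tag that counts 1 captured transcript, and levels are given as CPM, the UMIs of a gene per 1000000 UMIs of the same cells. The libraries had 22 cell barcodes in common. Cells were clustered without the 7 members among the variable genes and clusters were named from marker lists, which gave 14 classes with at least 50 cells in both libraries. A cluster whose leading gene was Sparc scored alike on fibroblast and endothelial markers, which goes against the CD45+ gate, and was left unnamed. The cDC2 cluster scored 2.32 on its own markers and 2.42 on another list, and the effector or memory CD8 cluster 0.728 and 0.727. Both were named because more markers of their own list (5 and 3) than of any other (0 and 2) were among the 10 leading genes, so these names are less certain. Gene and class pairs with at least 20 UMIs in all were compared and called at 2-fold in either direction. Across all kept cells 11.9% of genes passed 2-fold, and the median gene was lower in BLM by a log2 ratio of -0.18 there, -0.18 in alveolar macrophages, -0.11 in interstitial or recruited macrophages and -0.10 in neutrophils, and higher by 0.10 in cDC1 and 0.12 in cDC2. Each class total depends on all RNA in it, so fewer transcripts of a gene and more of the rest cannot be told apart.

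Of 98 class and member pairs, 51 had 20 UMIs, and 22 of these (43.1%) passed 2-fold, 20 lower and 2 higher in BLM than in naive. Over all genes tested the share past 2-fold in either direction ranged from 6.38% in B cells to 19.1% in the Sparc-led cluster among these classes. Ly6c2 was lower in 7 of 10 classes and higher in 1, Ly6a lower in 5 of 13 and higher in 1, Ly6i lower in 4 of 5, and Ly6e past 2-fold in 0 of 14. Marker-positive minor cells in cDC2 and B cells bear on this count, and without them it was 21 of 50, with 18 lower and 3 higher. The pairs of a class share its library and a gene recurs in many classes, so the pairs are not independent.

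**Figure D1:**
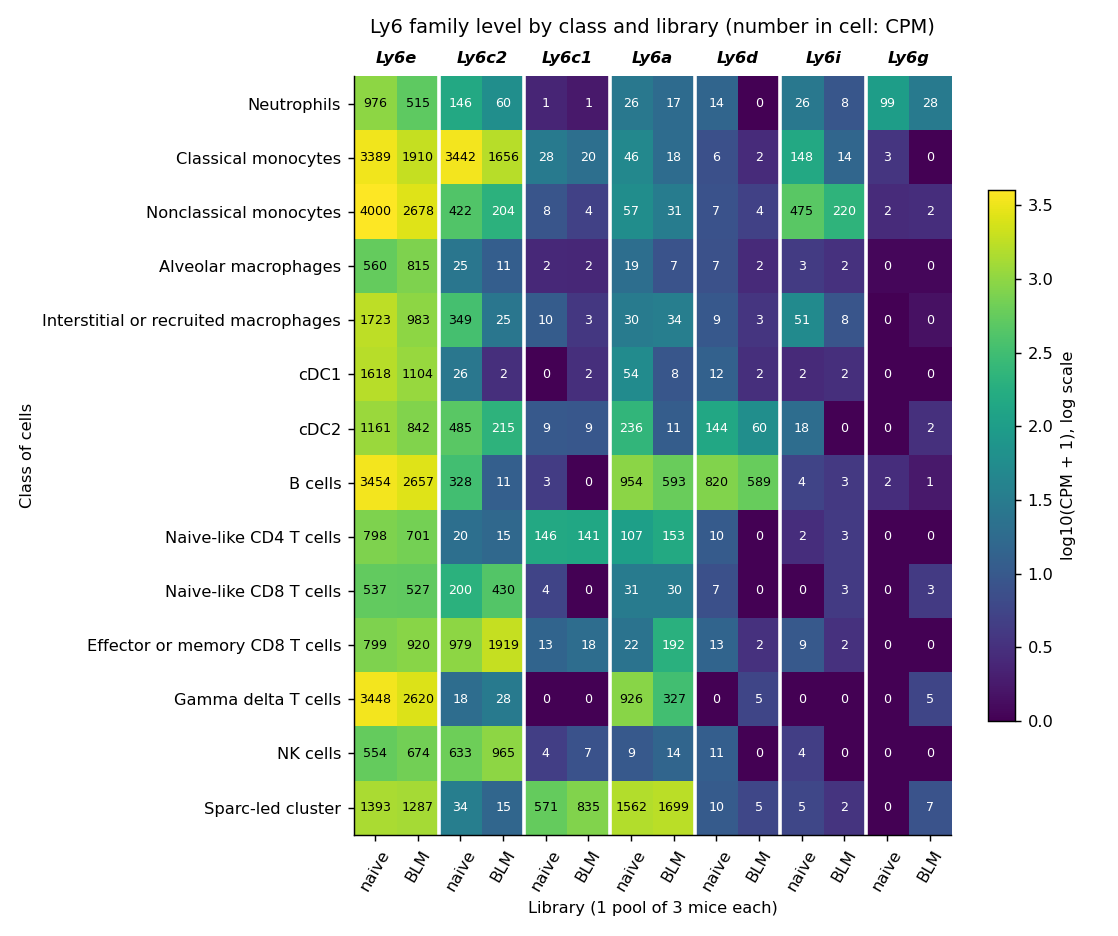
Level of each Ly6 member (columns) in 13 leukocyte classes and the Sparc-led cluster (rows), shown as color on a log10(CPM + 1) scale with the CPM printed in each cell, for the naive and the BLM library. Ly6e is above 500 CPM in every class, Ly6g and Ly6i are each concentrated in 1 class, and Ly6c2 is high in classical monocytes and in effector or memory CD8 T cells.

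Classical monocytes, the recruited Ly6C-high blood monocytes, had the highest Ly6c2 level of any class in the naive lung and not in the injured lung. Ly6c2 was 3442 CPM (2666 UMIs in 177 cells) in naive and 1656 CPM (930 UMIs in 150 cells) in BLM, 2.08-fold lower, with a log2 ratio of -1.06 (95% interval -1.16 to -0.95). A Ly6c2 UMI was present in 96.6% of naive and 90.7% of BLM cells (82.0% and 65.3% after each cell was thinned to 1000 UMIs), and the median cell was at 2444 and 1152 CPM. Most cells of both libraries thus carried the transcript, at different amounts. In naive-like CD4 T cells, which should lack the transcript, 4.42% and 2.55% of cells had a Ly6c2 UMI, at median depths of 2156 and 2023 UMIs against 4376 and 3721 in classical monocytes. Ly6c2 was among the 10 leading genes of this cluster, though it was used neither to cluster the cells nor to name the class. Of the 8 markers used to name the class, Vcan was past 2-fold and higher in BLM (log2 ratio 1.44).

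Lower Ly6c2 levels were also measured in other myeloid classes. In nonclassical monocytes, the Ly6C-low patrolling cells, Ly6c2 was 422 CPM in naive and 204 in BLM (log2 ratio -1.04, -1.36 to -0.74). In neutrophils it was 146 CPM (105 UMIs) and 59.7 (80 UMIs), with a log2 ratio of -1.29 (-1.73 to -0.86). Classical monocytes, nonclassical monocytes and neutrophils thus showed ratios whose intervals overlapped. Interstitial or recruited macrophages had 349 CPM and 25.2 CPM (log2 ratio -3.79), where 1 naive cell carried 78 of 278 UMIs and the log2 ratio was -1.14 without integration of the libraries. Alveolar macrophages had 24.96 and 10.9 CPM (log2 ratio -1.20), a level at which free RNA was not set apart from expression. The background of genes past 2-fold was 9.02% in classical monocytes, where 3 of 5 members passed, all lower (4.95% of genes were lower). It was 7.78% in nonclassical monocytes (2 of 4 members), 10.6% in neutrophils (3 of 5, with 6.74% of genes lower), 17.9% in interstitial or recruited macrophages (3 of 5) and 16.2% in alveolar macrophages (3 of 6).

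Ly6i, a close relative of Ly6a, was mostly a nonclassical monocyte transcript. These cells held 69.8% of all Ly6i UMIs in naive and 57.7% in BLM. Their level was 475 CPM (533 UMIs) in naive and 220 CPM (112 UMIs) in BLM, a log2 ratio of -1.11 (-1.42 to -0.81), and 62.3% and 28.7% of cells had a UMI (30.2% and 15.5% thinned), against 1.10% and 0.629% of B cells. Depth differed in the same direction, with median UMIs per nonclassical cell of 4235 in naive and 2517 in BLM, while B cells had 1957 and 1654. Ly6i was among the 10 leading genes of this cluster. Of the 8 markers used to name the class, 0 passed 2-fold. Their median log2 ratio was -0.40, with values from -0.70 to 0.20, and their part in the Ly6 ratios was not tested.

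Classical monocytes had the lower Ly6i level but the larger difference. They had 148 CPM (115 UMIs) in naive and 14.2 CPM (8 UMIs) in BLM, 10.4-fold lower, with a log2 ratio of -3.38 (-4.63 to -2.35). That interval and the one of nonclassical monocytes did not overlap. Ly6i was also lower in interstitial or recruited macrophages (51.4 against 8.03 CPM, log2 ratio -2.68) and in neutrophils (26.4 against 8.20 CPM, log2 ratio -1.69, from 19 and 11 UMIs). In cDC2 it had 12 UMIs in naive, 5 of them in 1 cell with plasmacytoid markers, and 0 in BLM, too few to call. Alveolar macrophages had 3.28 and 2.29 CPM, with an interval that held 0 (-1.59 to 0.52).

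**Figure D2:**
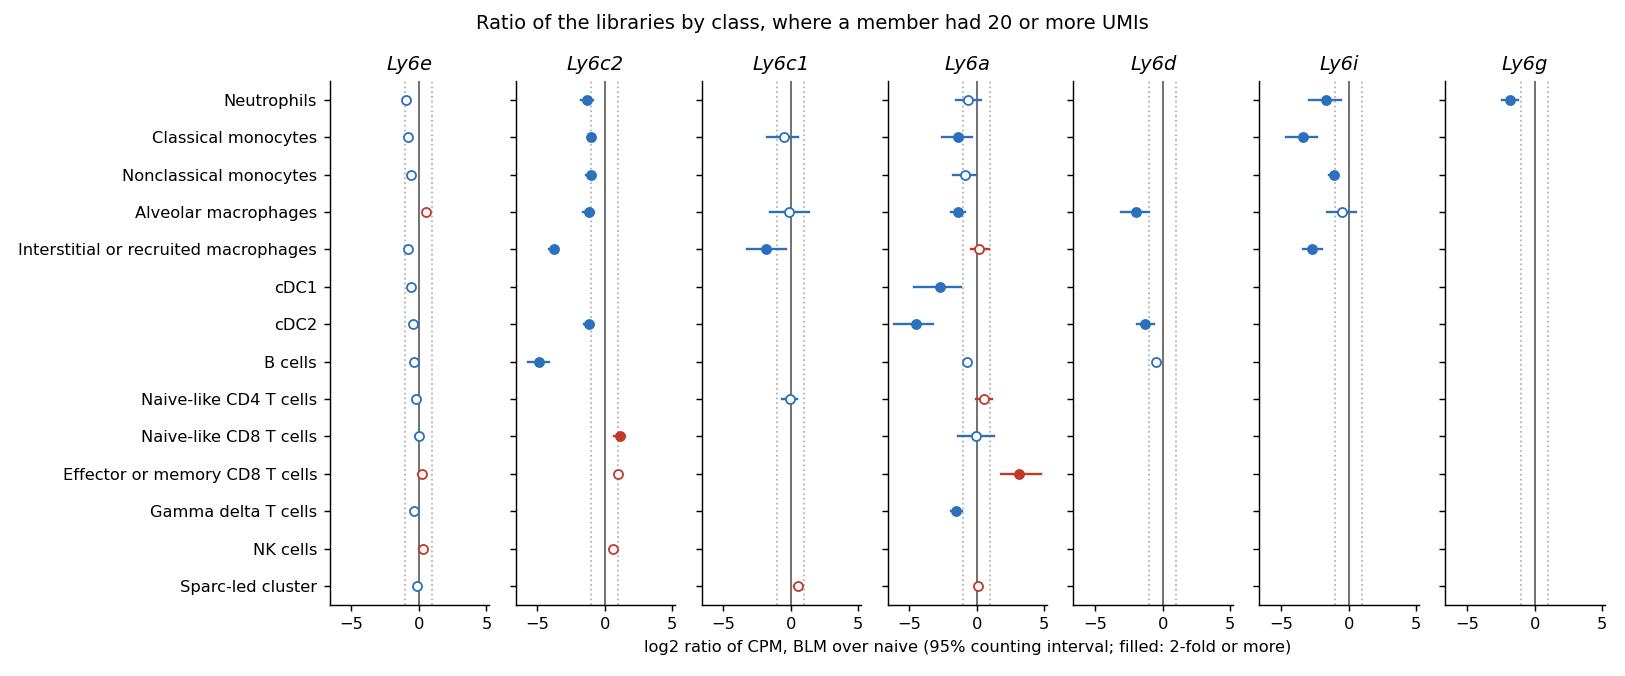
The log2 ratio of BLM over naive CPM (horizontal axis) of each member in each class with at least 20 UMIs, with the exact 95% counting interval as a line and a filled point for 2-fold or more. Ly6i and Ly6c2 lie left of 0 in myeloid classes, Ly6c2 lies right of 0 in CD8 T and NK cells, and no Ly6e point is past 2-fold.

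Ly6g, which encodes the antigen used to gate neutrophils, was sparse even in the neutrophil class. Neutrophils held 85.5% of all Ly6g UMIs in naive and 73.1% in BLM. The level was 98.7 CPM (71 UMIs in 453 cells) in naive and 28.3 CPM (38 UMIs in 998 cells) in BLM, 3.48-fold lower, with a log2 ratio of -1.80 (-2.41 to -1.21). A UMI was present in 9.49% of naive and 3.01% of BLM neutrophils (6.63% and 2.23% thinned), at median depths of 1580 and 1329, against 0.487% and 0.157% of B cells. None of the 8 neutrophil markers used for naming passed 2-fold, and their summed level was 44924 CPM in naive and 45737 CPM in BLM. The summed markers were thus near equal, while 3 of 5 members were lower past 2-fold, Ly6e was lower by less and the interval of Ly6a held 0. Ly6d was seen in 10 naive neutrophils (2.21%, 13.9 CPM) and in 0 of 998 BLM neutrophils, which allows a share of cells with a UMI of up to 0.301% and does not bound the cells that express it. The exact interval of its log2 ratio ended at -2.06, and with 10 UMIs in all it was not among the 5. At this level free RNA was not set apart from expression. Few Ly6d UMIs were also found in NK cells (6 in naive, 0 in BLM) and cDC1 (7 and 1). Regulatory T cells (0 and 3) and gamma delta T cells (0 and 1) went the other way. Ly6a had 19 UMIs in naive and 23 in BLM, and its log2 ratio moved from -0.62 to -1.62 without the cell with the most UMIs in each library.

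In CD8 T and NK cells Ly6c2 went the other way. In effector or memory CD8 T cells it was 979 CPM (218 UMIs in 64 cells) in naive and 1919 CPM (830 UMIs in 121 cells) in BLM, a log2 ratio of 0.97 (0.75 to 1.19) and 1.96-fold, just short of the 2-fold call. In naive-like CD8 T cells it was 200 and 430 CPM (log2 ratio 1.10, with a lower bound of 0.71). In NK cells it was 633 and 965 CPM (log2 ratio 0.61, 0.38 to 0.84). Ly6C on CD8 T cells is known to accompany antigen experience and memory, and Ly6c2 was itself a leading gene of the effector cluster. A UMI was found in 68.8% of naive and 92.6% of BLM effector or memory CD8 T cells (49.8% and 73.3% thinned), at median depths of 3225 and 3490, above the shares of naive-like CD4 T cells given before. Of 7 markers of this class with 20 UMIs, 1 passed 2-fold, and the median log2 ratio was -0.06. Ccl5, a chemokine of cytotoxic cells, was 1.97-fold and Nkg7, a cytotoxic granule gene, 1.77-fold higher in BLM. Eomes, a transcription factor of memory cells, was 2.46-fold lower. The intervals of Cd8a, Cd8b1, Il2rb and Cxcr3 held 0. The part of these markers in the Ly6 ratios was not tested. The background past 2-fold was 9.49% in effector or memory CD8 T cells, with 1 of 3 members past it, 8.63% in naive-like CD8 T cells (1 of 3) and 8.22% in NK cells (0 of 2).

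The naive-like CD8 result depended on the clustering. Without integration of the libraries the same log2 ratio was -0.016, and the cause was not tested. When T-like cells were instead picked only by their Cd8 UMIs, with no Cd4 UMI, Ly6c2 was 568 CPM in 234 naive cells and 1373 CPM in 259 BLM cells (log2 ratio 1.27, 1.10 to 1.45). This group was picked after the data were seen, and it does not separate the CD8 classes. Effector or memory CD8 T cells numbered 64 in naive and 121 in BLM, and naive-like CD8 T cells 176 and 136. The part of this mix in the ratio was not tested. T-like cells held 12.8% of all Ly6c2 UMIs in naive and 43.3% in BLM, and classical monocytes 44.9% and 28.2%. In the BLM library the order of Ly6c2 levels began with a small Ifit1-led T sub-cluster (3177 CPM, 13 cells), followed by cytotoxic T cells (2093 CPM) and effector or memory CD8 T cells (1919 CPM), whose intervals overlapped, and then by classical monocytes (1656 CPM). In naive, classical monocytes (3442 CPM) stood apart from cytotoxic T cells (1714 CPM), which came next.

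Ly6a in effector or memory CD8 T cells had the largest ratio above 0 of the 51 pairs. It was 22.4 CPM (5 UMIs in 64 cells) in naive and 192 CPM (83 UMIs in 121 cells) in BLM, a log2 ratio of 3.10 (1.82 to 4.76). A UMI was found in 6.25% and 29.8% of cells (1.98% and 13.2% thinned), against 2.05% and 2.99% of NK cells, whose median depths were 2135 and 2041.5 against 3225 and 3490. The naive level rests on 5 UMIs. In Cd8-picked T-like cells Ly6a was 37.0 and 136 CPM (log2 ratio 1.88, 1.24 to 2.57), and in naive-like CD8 T cells 30.8 and 30.3 CPM. The limit from the mix of CD8 classes in the Cd8-picked group holds here too.

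Ly6c1 and Ly6c2 were found in different T cell classes. Among T-like cells, naive-like CD4 T cells held 74 of 97 Ly6c1 UMIs in naive (76.3%) and 46 of 63 in BLM (73.0%), and naive-like CD8 T cells held 2 UMIs in naive and 0 in BLM. The Ly6c1 level of naive-like CD4 T cells was 146 CPM in naive and 141 CPM in BLM, with a log2 ratio of -0.05 (-0.62 to 0.50), and 19.9% and 17.8% of cells had a UMI (11.8% and 11.0% thinned), against 1.14% and 0% of naive-like CD8 T cells, which were deeper (median 2510 and 2419.5 UMIs). Their Ly6c2 level was 19.8 CPM (10 UMIs) and 15.3 CPM (5 UMIs). Of the naive-like CD4 T cells with a Ly6c1 UMI, 3 of 45 in naive and 0 of 28 in BLM also had a Ly6c2 UMI. Where Ly6c2 was high, every classical monocyte with a Ly6c1 UMI (19 in naive, 11 in BLM) and every such effector or memory CD8 T cell (2 and 8) also had a Ly6c2 UMI. Most cells without a Ly6c1 UMI had one too, 96.2% and 89.9% of such classical monocytes and 67.7% and 92.0% of such effector or memory CD8 T cells. The overlap therefore says little about a link between the genes. How far reads assigned to the wrong gene of the near-identical pair enter these Ly6c1 counts was not tested. The background past 2-fold in naive-like CD4 T cells was 8.61% and 0 of 3 members passed, since Ly6a (107 and 153 CPM, -0.06 to 1.10) and Ly6e (798 and 701 CPM) did not either. Over all T-like cells with only Cd4 UMIs Ly6c1 was lower in BLM (125 against 52.5 CPM, log2 ratio -1.25), where activated CD4 T cells numbered 47 in naive and 176 in BLM. Activated CD4 T cells had Ly6c2 levels of 675 CPM (76 UMIs) in naive and 205 CPM (83 UMIs) in BLM.

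**Figure D3:**
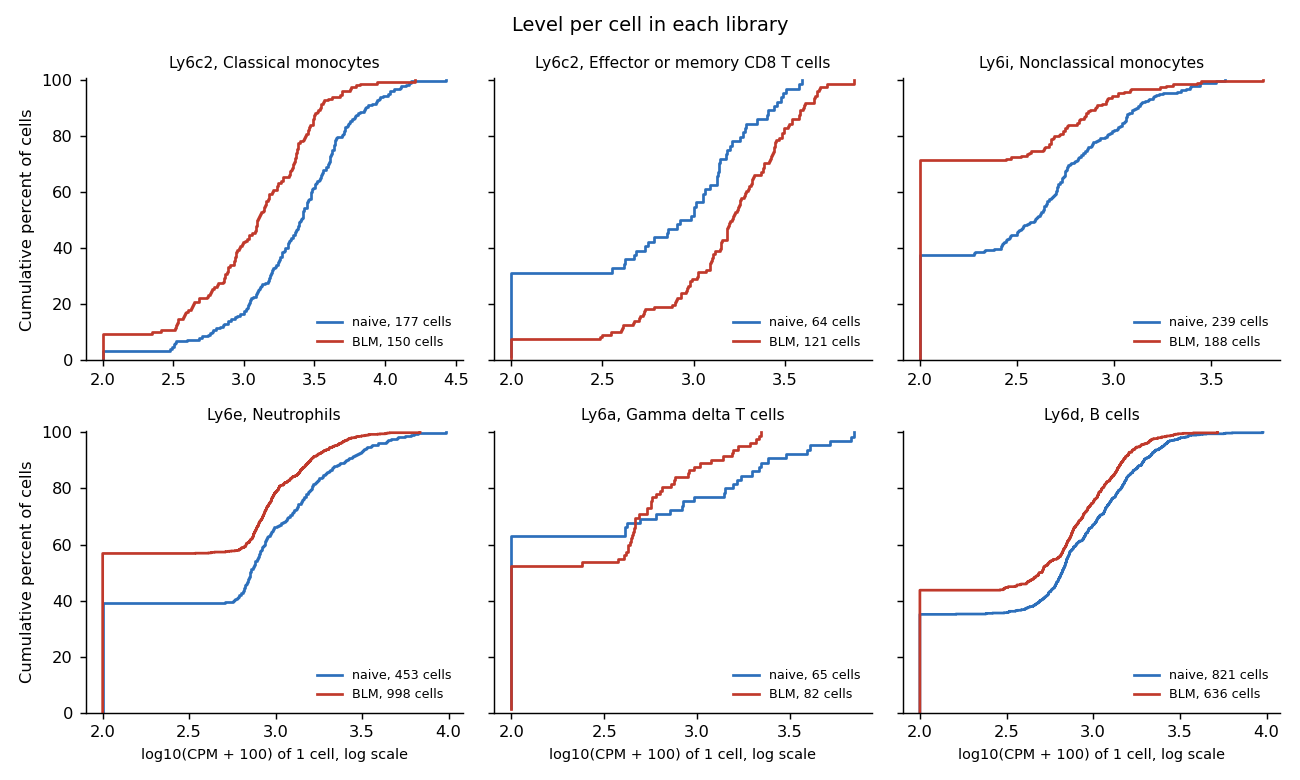
Cumulative percent of cells (vertical axis) against the level per cell on a log10(CPM + 100) scale for 6 pairs of member and class, with 1 line per library. The Ly6c2 curves of classical monocytes and of effector or memory CD8 T cells are shifted in opposite directions, with median classical monocytes at 2444 CPM in naive and 1152 CPM in BLM.

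Gamma delta T cells showed how few cells can carry a difference. Ly6a was 926 CPM (203 UMIs in 65 cells) in naive and 327 CPM (69 UMIs in 82 cells) in BLM, 2.83-fold lower (log2 interval -1.92 to -1.10). The share of cells with a UMI was 36.9% in naive and 47.6% in BLM, and 27.4% and 26.0% when thinned, so that it gave no order, and 3 naive cells held at least 50% of the naive UMIs. At a limit of 10% mitochondrial UMIs per cell the log2 ratio was -0.68. The background past 2-fold was 8.77% in this class and 1 of 2 members passed.

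B cells carried most Ly6d and much Ly6a and Ly6e. They held 82.6% of all Ly6d UMIs in naive and 85.6% in BLM, at 820 CPM (1673 UMIs in 821 cells) and 589 CPM (787 UMIs in 636 cells), a log2 ratio of -0.48 (-0.60 to -0.35). A Ly6d UMI was found in 64.9% and 56.3% of B cells (45.5% and 38.1% thinned), at median depths of 1957 and 1654, against 2.21% and 0% of neutrophils at 1580 and 1329. Ly6d was low or absent elsewhere: after cycling lymphocytes (400 and 181 CPM), the next level was in cDC2. Alveolar macrophages had 6.73 CPM (41 UMIs) and 1.68 CPM (11 UMIs), levels at which free RNA was not set apart from expression. Across all kept cells Ly6d was 119 CPM in naive and 43.3 CPM in BLM, 2.76-fold lower, while B cells were 821 of 3820 and 636 of 4393 cells. The difference over all cells was thus larger than the one within B cells, and the B cell share differed between the libraries.

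Within the smaller of the B cell clusters, led by Ighm and with Ly6d among its leading genes, Ly6d was 1029 CPM in naive and 691 in BLM. The larger cluster, led by Ighd and Fcer2a, had 690 and 523 CPM. Ly6a followed the same order, with 1635 and 940 CPM in the smaller cluster and 528 and 370 CPM in the larger one (log2 ratios -0.80 and -0.51). Without the plasma-marker cells described below, the smaller cluster had Ly6a levels of 1315 and 940 CPM (log2 ratio -0.48) and Ly6d levels of 1084 and 691 CPM. Over all B cells Ly6a was 954 and 593 CPM (log2 ratio -0.68, -0.81 to -0.56). The 8 B cell markers used for naming had log2 ratios from -0.66 to -0.04, with a median of -0.29. Their part in the Ly6 ratios was not tested. The background past 2-fold was 6.38% of genes in B cells, 4.94% lower, and 1 of 4 members passed.

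That member was Ly6c2, and it rested on few cells. B cells had 328 CPM (669 UMIs) in naive and 11.2 CPM (15 UMIs) in BLM, a log2 ratio of -4.87 (-5.71 to -4.14), but 2 naive cells held at least 50% of the UMIs and 1 of them 192. A group of 14 naive B-class cells had UMIs of at least 4 of 8 plasma cell markers, which mark antibody-secreting cells, and 0 BLM cells did. They held 610 of the 669 Ly6c2 UMIs (91.2%), at 4080 CPM, with 23.0% of the Ly6a and 7.11% of the Ly6d UMIs. Without them B cells had Ly6c2 levels of 31.2 CPM in naive and 11.2 in BLM (log2 ratio -1.48, -2.40 to -0.64), Ly6a 792 and 593 CPM (log2 ratio -0.42) and Ly6d 822 and 589 CPM (log2 ratio -0.48). A further 11 naive and 3 BLM cells had exactly 3 of the markers. Ly6C is known on plasma cells, and the cells were picked by markers after the data were seen.

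cDC2, the conventional dendritic cells that present antigen to CD4 T cells, held a like minority. Ly6c2 was 485 CPM (321 UMIs in 106 cells) in naive and 215 CPM (77 cells) in BLM, Ly6d 144 and 59.5 CPM, and Ly6a 236 CPM (156 UMIs) and 10.6 CPM (5 UMIs). All 3 were past 2-fold, 3 of 4 members measured, against 13.2% of genes. In this class 14 naive and 6 BLM cells had UMIs of at least 4 of 8 markers of plasmacytoid dendritic cells, the interferon producers that express Ly6C, Ly6D and Sca-1. They held 88.2% of the Ly6c2, 90.5% of the Ly6d and 73.1% of the Ly6a UMIs of naive cDC2. Their own Ly6d level was 1147 CPM in naive and 1077 CPM in BLM (log2 ratio -0.09, -0.84 to 0.60), their Ly6c2 level 3775 and 1175 CPM (log2 ratio -1.68, from 283 and 24 UMIs) and their Ly6a level 1521 CPM (114 UMIs) and 147 CPM (3 UMIs).

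Without the plasmacytoid-marker cells the Ly6c2 direction in cDC2 turned. The remaining 92 naive and 71 BLM cells had 64.8 CPM (38 UMIs) and 171 CPM (77 UMIs), a log2 ratio of 1.40 with a lower bound of 0.82. Few cells carried this too: 1 naive cell held 23 of the 38 UMIs, 1 BLM cell held 26 of the 77, and 14.1% of naive and 19.7% of BLM cells had a UMI, with overlapping intervals. A further 2 naive and 5 BLM cells had exactly 3 of the plasmacytoid markers and stayed among them. Ly6d had 9 and 6 UMIs, too few to call. Ly6a kept its direction, with 42 UMIs (71.6 CPM) in naive, 18 of them in 1 cell, and 2 (4.44 CPM) in BLM. In cDC1, the cross-presenting subset, Ly6a was 53.6 CPM (31 UMIs) and 8.28 CPM (4 UMIs), a log2 ratio of -2.69 (-4.66 to -1.19), where 15.3% of genes passed 2-fold and 1 of 2 members did.

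**Figure D4:**
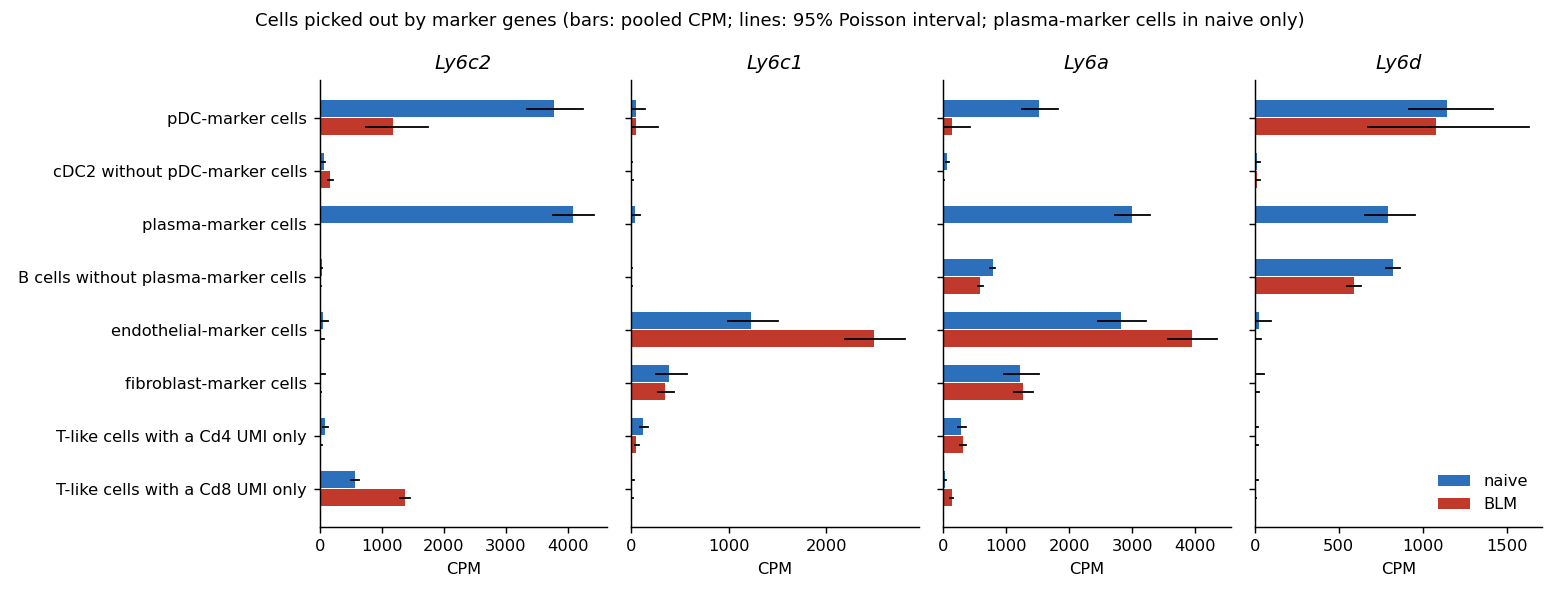
CPM of Ly6c2, Ly6c1, Ly6a and Ly6d (bars, with exact 95% Poisson intervals as lines, naive and BLM) in small groups of cells picked by marker UMIs and in the rest of their classes. Ly6c2 is 4080 CPM in plasma-marker cells of the naive library, of which BLM has none, and is 64.8 CPM in naive cDC2 when plasmacytoid-marker cells are left out.

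Ly6a and Ly6c1 were highest in the Sparc-led cluster in both libraries. Ly6a was 1562 CPM in naive and 1699 CPM in BLM (log2 ratio 0.12, -0.07 to 0.32), and Ly6c1 571 CPM (118 UMIs in 64 cells) and 835 CPM (341 UMIs in 127 cells), a log2 ratio of 0.55 (0.24 to 0.86). Within it, 14 cells of each library with endothelial markers had Ly6c1 levels of 1231 CPM in naive and 2489 CPM in BLM and held 32.7% and 56.7% of all Ly6c1 UMIs of their library. Ly6c2 had 4 and 2 UMIs there. Cells with fibroblast markers, 12 and 23, had Ly6c1 levels of 386 and 349 CPM and Ly6a levels of 1220 and 1270 CPM. The cluster also held 10 naive and 4 BLM cells with basophil markers. Its other 28 naive and 86 BLM cells were shallow, with median depths of 910 and 808.5 UMIs. They had Ly6a levels of 239 and 208 CPM. Ly6C and Sca-1 are known on lung endothelium, and Sca-1 on fibroblasts. The background was 19.1% and 0 of 3 members passed 2-fold in the cluster. Ly6c1 was the only member higher in BLM over all kept cells (16.7 against 21.4 CPM, log2 ratio 0.36, 0.14 to 0.58), and this direction turned to -0.39 when classes were weighted equally.

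Ly6a in monocytes and macrophages was low, and it was lower in BLM in both monocyte classes and in alveolar macrophages. In classical monocytes it was 46.5 CPM (36 UMIs) and 17.8 CPM (10 UMIs), a log2 ratio of -1.38 (-2.56 to -0.34). In alveolar macrophages it was 19.2 and 7.34 CPM (log2 ratio -1.39), where free RNA was not set apart from expression. In nonclassical monocytes Ly6a was 57.0 and 31.4 CPM (log2 ratio -0.86). Interstitial or recruited macrophages had 30.1 and 34.3 CPM, with an interval from -0.44 to 0.87, and a log2 ratio of -1.97 without integration.

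Ly6e, which encodes a broadly expressed member known as a restriction factor for coronaviruses, was the most even. Every class had it and in 0 of 14 did it pass 2-fold. Its level was highest in nonclassical monocytes, at 4000 CPM in naive and 2678 CPM in BLM (log2 ratio -0.58), and next in B cells (3454 and 2657 CPM) and gamma delta T cells (3448 and 2620 CPM). The intervals of these 3 classes overlapped in BLM, and in naive nonclassical monocytes stood apart. Migratory dendritic cells had the lowest level of all 22 classes, at 204 CPM (20 UMIs in 15 cells) in naive and 116 CPM (51 UMIs in 69 cells) in BLM.

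The counting intervals of Ly6e lay below 0 in 8 classes and above 0 in 2. The larger lower ratios were in neutrophils (976 against 515 CPM, log2 ratio -0.92, -1.08 to -0.77), classical monocytes (3389 against 1910 CPM, log2 ratio -0.83) and interstitial or recruited macrophages (1723 against 983 CPM, log2 ratio -0.81). Alveolar macrophages went the other way, with 560 CPM (3407 UMIs) in naive and 815 CPM (5328 UMIs) in BLM and a log2 ratio of 0.54 (0.48 to 0.61). In interstitial or recruited macrophages the direction turned to 0.77 without integration before clustering. Naive-like CD8 T cells had 537 and 527 CPM (-0.32 to 0.26).

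Classes with under 50 cells in a library were described by level only. Group 2 innate lymphoid cells, tissue cells that make type 2 cytokines, had Ly6e levels of 3060 CPM in naive and 2317 CPM in BLM and Ly6a levels of 324 and 340 CPM. Regulatory T cells had Ly6e levels of 2027 and 2319 CPM, and their Ly6a level was 576 CPM (48 UMIs in 26 cells) and 317 CPM (77 UMIs in 76 cells). Both types were near free of Ly6c2, with 6 and 0 UMIs in the lymphoid cells and 1 and 3 in regulatory T cells. Activated CD4 T cells had Ly6a levels of 399 and 426 CPM and Ly6e levels of 1385 and 1371 CPM. Cytotoxic T cells, by contrast with these classes, had a Ly6c2 UMI in 75.4% of naive and 87.2% of BLM cells (63.8% and 76.4% thinned). In the Ifit1-led T sub-cluster Ly6c2 was 848 CPM (36 UMIs in 15 cells) and 3177 CPM (96 UMIs in 13 cells).

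Interferon-response genes were counted beside the members because several Ly6 genes belong to that response. In neutrophils all 18 of the 25 listed genes that had 20 UMIs were past 2-fold and lower in BLM, with a median log2 ratio of -1.52 against -0.11 over all genes tested. Zbp1, a sensor of nucleic acids, had 24 UMIs in naive and 2 in BLM, and Ifit1, an antiviral effector, 66 and 12. In classical monocytes 8 of 21 were lower past 2-fold (median -0.76 against -0.04), and in B cells 10 of 19 (median -1.10 against -0.07). Of all genes tested, 6.74% were lower past 2-fold in neutrophils, 4.95% in classical monocytes and 4.94% in B cells. In classical monocytes Ifit3, which encodes an antiviral RNA-binding protein, had a log2 ratio of -2.49 and Rsad2, the gene of viperin, -1.32. In alveolar macrophages 3 of 20 were higher and 0 lower, near the 16.2% of all genes past 2-fold there, and in cDC1 3 of 11 were higher and 0 lower, where 15.3% of genes passed. In NK cells 1 was higher and 1 lower of 14, where 8.22% of genes passed. In nonclassical monocytes 4 of 15 were lower and 1 higher, where 7.78% passed. In the CD8 classes, where Ly6c2 was higher in BLM, 0 were higher. There 2 of 9 were lower in effector or memory CD8 T cells (9.49% of genes passed) and 3 of 12 in naive-like CD8 T cells (8.63%). Whether these genes and the Ly6 members differ for the same reason was not tested.

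Genes that build and remodel the GPI anchor were counted because all members need that anchor. Over all kept cells 0 of 27 passed 2-fold (median log2 ratio -0.11 against -0.17 over all genes). In neutrophils 2 of 11 were lower, Dpm2, a regulatory subunit of the dolichol-phosphate-mannose synthase, at -1.40 and Pigt, a GPI transamidase subunit, at -1.04, where 6.74% of all genes were lower past 2-fold. In nonclassical monocytes 3 of 16 were higher, where 7.78% of all genes passed in either direction. Of 33 other genes of the Ly6/uPAR family 23 were listed, and 10 had 20 UMIs over all kept cells, where 11.9% of all genes passed 2-fold, of which 2 were lower past 2-fold (Ly6k -1.37, Lynx1 -1.60) and 3 higher. The higher ones were Cd59a (1.68), which encodes an inhibitor of the complement attack complex, Gpihbp1 (1.06), which carries lipoprotein lipase across capillary endothelium, and Slurp1, a secreted member, with 0 UMIs in naive and 39 in BLM. Plaur, the urokinase receptor, was 1247 CPM in naive and 1922 CPM in BLM neutrophils, a log2 ratio of 0.62, and was chosen after its values were seen.

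Genes with the most similar pattern over the 28 values of 14 classes in both libraries were sought among 9718 genes, by Pearson's r of log2(CPM + 10). The values of a class share its library and its depth, and each r is a description. Ly6d was nearest to Spib (0.96), Iglc3 (0.95) and Iglc2 (0.94), B cell genes. Ly6g was nearest to Chil1 (0.95), 9830107B12Rik (0.93) and Lcn2 (0.92), and Ly6i to Adgre4 (0.92), Cyp2ab1 (0.92) and Ceacam1 (0.87). Ly6c2 was nearest to Epsti1 (0.78), Ms4a4c (0.71) and Racgap1 (0.70), and Ly6c1 to Dpt (0.83), Serping1 (0.83) and Col6a1 (0.82). For Ly6a these were Cnn3 (0.82), Golgb1 (0.82) and Nid1 (0.79), and for Ly6e Rb1 (0.78), Atf6 (0.72) and Eif4g3 (0.71). Among the members themselves the highest r were 0.52 for Ly6e with Ly6i and 0.50 for Ly6a with Ly6c1, and Ly6c1 with Ly6c2 was -0.13.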

How the data were processed

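Single-cell RNA was measured in 2 libraries of sorted lung cells, BLM and naive. The authors aligned and counted reads with the BD Rhapsody WTA Analysis Pipeline 1.8 on GRCm38 with GENCODE vM19, and the deposited values are raw UMI counts per cell and gene, after the pipeline's correction of UMI errors and with no normalization. The study's own cell filter and cell names were not used here. The tables listed 4714 BLM barcodes with 22490782 UMIs and 4062 naive barcodes with 18019004.

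Cells with at least 200 genes and at most 15% mitochondrial UMIs were kept. Scrublet in scanpy 1.11.5 called 8 and 61 doublets by its own threshold, 0.177% and 1.55% of cells. Because these shares were low and unequal, the 3% of cells with the highest scores were left out instead (133 and 105). Clusters were made with Seurat 5.3.0 in R 4.3.3 from 2000 variable genes without the members, with integration of the libraries, 30 dimensions and a resolution of 0.5, and T-like cells were clustered again with 20 dimensions. Names came from marker lists, and the score gap needed for a name was set after the clusters were seen. Names may therefore differ from those of the study.

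UMI counts were summed per class and library and given as CPM. Ratios carry exact conditional intervals, levels exact Poisson intervals and shares exact Clopper-Pearson intervals (scipy 1.17.1), and a count of 0 was bounded by 3 UMIs. With 1 library per group no test was run. Pairs with at least 20 UMIs were called at 2-fold. Members were named throughout, list genes past 2-fold could be named, at most 4 a list by size of ratio (the 5 other Ly6/uPAR genes past 2-fold are all named), and the 3 genes nearest in pattern had at least 200 UMIs. The members and lists were chosen with earlier results of these data known. Sequences and positions came from RefSeq and from a GENCODE release of the same build that is later than the one the authors used. The counting procedure was run on simulated Poisson counts, the model the intervals assume. That run cannot show how the intervals behave where few cells hold most UMIs. The alternatives were other limits on mitochondria, doublets, folds and UMIs, other clusterings and scalings, and groups of cells left out.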

Additional observations from a re-analysis of the deposited data

Results flagged for a closer look

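The ratio of 1 member passed 2-fold in opposite directions in different classes in a pair of cases, each with counting intervals on opposite sides of 0. Ly6e (8 classes below 0 and 2 above) and Ly6c1 (1 and 1) also had intervals on both sides, but did not pass 2-fold in both directions. Ly6a was higher in BLM in effector or memory CD8 T cells (log2 ratio 3.10) and lower in cDC2 (-4.47). Ly6c2 was higher in BLM in naive-like CD8 T cells (1.10) and lower in B cells (-4.87). The first of these was -0.016 without integration, and the second was -1.48 without 14 plasma-marker cells that were seen only in naive. With 1 library per group the difference between classes was not tested.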

How the results depend on the processing

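Across all kept cells the log2 ratios kept their direction in every alternative run except for Ly6c1, which turned to -0.39 as the mean over classes. At most 10% mitochondrial UMIs gave -1.28 for Ly6c2 and -1.66 for Ly6d, and keeping doublets gave -0.74 for Ly6a. Scaling by the median ratio gave -0.67 for Ly6a, -0.99 for Ly6c2, -1.28 for Ly6d and -0.35 for Ly6e. The mean over classes gave -0.75 for Ly6a, -1.25 for Ly6d, -0.30 for Ly6e, -1.80 for Ly6g and -1.88 for Ly6i. Of the pairs within classes, Ly6c2 in naive-like CD8 T cells turned to -0.016 and Ly6e in interstitial or recruited macrophages to 0.77 without integration, and Ly6c2 in cDC2 to 1.40 without plasmacytoid-marker cells, an alternative added after the data were seen. The cause was not tested. Without integration 32 pairs stayed within their intervals and 8 moved, and no alveolar macrophage class was found in BLM. Ly6c2 in B cells ranged from -1.36 without integration and -1.55 with doublets kept to -6.43 at the stricter mitochondrial limit. The 22 pairs past 2-fold became 11 at 3-fold, 30 at 1.5-fold, 28 from 10 UMIs and 18 from 50 UMIs. Thinning to 1000 UMIs moved 72 of the shares of cells and left 11 within their intervals. No paired analysis was possible because each group has 1 library. Leaving out a replicate was not possible either. Depth limits Ly6g, Ly6i outside monocytes and Ly6a in dendritic and CD8 T cells, where one side of a ratio rests on few UMIs.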
